A study of Mus musculus with 4 samples.

Results

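Reg1, Reg3a, Reg3b and Reg3g, which encode secreted lectins of the regenerating islet-derived family, were examined together with Retnlb, which encodes resistin-like molecule beta, and Mptx1, which encodes a mucosal pentraxin. The 6 genes were listed as secreted products of gut epithelium that respond to microbes, and each was measured by 1 probe set that names it alone, out of 22180 genes in all. Reg3b and Reg3g proteins are bactericidal C-type lectins that enterocytes and Paneth cells release into the mucus, and their transcription is known to depend on bacterial signals and on interleukin-22. Retnlb protein is a cysteine-rich product of goblet cells that is induced by colonization and by type 2 cytokines, and Mptx1 belongs to the pentraxins, a family of ring-shaped pattern recognition proteins. None of the 6 is a T cell product, so their levels on arrays of enriched lymphocytes are read beside those of epithelial markers.

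Total RNA of C57Bl/6 mice aged 8 to 10 weeks was hybridized to 4 Affymetrix arrays, 1 per group. The groups were a sample labelled LP (T cells from lamina propria of the colon), intraepithelial lymphocytes (IEL) of the small intestine, colon IEL of unmanipulated mice, and colon IEL of mice given vancomycin, ampicillin, neomycin and metronidazole for 7 days and then recolonized for 7 days. The labels give the recolonization as co-housing with littermates in their overview and as used bedding in their methods. They name pools of 10 mice, 5 male and 5 female, without saying whether each array had a pool of its own, a negative magnetic selection of T cells to which an EpCAM antibody was added for all groups, and no array of mice given antibiotics alone. Antibiotics and recolonization therefore cannot be told apart. With 1 array per group no difference has a replicate check and none was tested.

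The markers did not follow the labels everywhere. The 9 measured T cell markers had a median log2 level of 2.41 on the array labelled LP, against 5.95, 6.48 and 7.04 on the small intestinal, colon and recolonized IEL arrays. The 14 pan-epithelial markers had medians of 8.03, 6.10, 4.57 and 5.01 in the same order. The first array thus carried mostly epithelial transcripts against its label. It is called the LP-labelled array, and no result with it is read as one on T cells. The median level of all genes was 2.18, 2.24, 2.41 and 2.39, and a level at or below it is treated here as lying in the low end of its array. The deposited values come without detection calls. In bulk RNA, fewer cells of a type and less RNA per cell cannot be told apart.

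Reg3b and Reg3g had nearly the same pattern over the 4 arrays. Reg3b was at a log2 level of 9.35 on the LP-labelled array, 10.24 on small intestinal IEL, 4.76 on colon IEL and 4.49 on recolonized colon IEL. Reg3g was at 7.74, 8.83, 2.70 and 2.72 in the same order. Both genes were thus high on the 2 arrays with the most epithelial RNA and lower on both colon IEL arrays, where Reg3b still lay 2.35 and 2.10 above the median of all genes and Reg3g only 0.29 and 0.33. After each gene was centred on its mean over the 4 arrays, the root mean square difference between the pair was 0.24 on the log2 scale, the smallest of the 15 pairs among the 6 genes, which otherwise ran from 1.54 to 5.21.

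The RefSeq promoter windows (assembly GRCm38.p6, 250 bases before to 50 bases after the annotated start) of the lectin genes are shown because Reg3b and Reg3g moved together while Reg1 and Reg3a, from the same cluster on chromosome 6, did not follow them. The cluster holds, in order, Reg3b, Reg3d, Reg3a, Reg2, Reg1 and Reg3g among protein-coding genes, so the pair of like pattern stands at its opposite ends and on opposite strands. The windows are chr6:78370635-78370934 on the plus strand for Reg3b, chr6:78468825-78469124 on the minus strand for Reg3g, chr6:78425733-78426032 on the plus strand for Reg1 and chr6:78380459-78380758 on the plus strand for Reg3a. Capitals mark every match on either strand to 5 motifs. These are TTCNNNGAA, the letters of a STAT site, and the STAT6-type form of that site, whose spacer is longer by 1 base. The others are the TATA box letters TATAAA and a pair of motifs bound by GATA factors, spelled AGATAA in the first case and, with another opening letter, TGATAA in the other.

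Reg3b: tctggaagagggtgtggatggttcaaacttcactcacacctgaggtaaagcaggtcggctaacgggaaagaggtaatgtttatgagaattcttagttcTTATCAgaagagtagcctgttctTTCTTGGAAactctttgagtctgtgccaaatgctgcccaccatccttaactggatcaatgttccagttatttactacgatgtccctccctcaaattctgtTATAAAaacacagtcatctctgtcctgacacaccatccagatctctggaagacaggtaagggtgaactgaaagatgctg
Reg3g: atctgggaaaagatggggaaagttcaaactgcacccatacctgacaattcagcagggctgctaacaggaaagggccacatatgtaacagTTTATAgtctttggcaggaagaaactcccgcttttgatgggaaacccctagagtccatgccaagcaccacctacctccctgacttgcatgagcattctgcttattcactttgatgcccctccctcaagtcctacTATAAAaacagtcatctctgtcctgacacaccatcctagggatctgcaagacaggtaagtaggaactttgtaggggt
Reg1: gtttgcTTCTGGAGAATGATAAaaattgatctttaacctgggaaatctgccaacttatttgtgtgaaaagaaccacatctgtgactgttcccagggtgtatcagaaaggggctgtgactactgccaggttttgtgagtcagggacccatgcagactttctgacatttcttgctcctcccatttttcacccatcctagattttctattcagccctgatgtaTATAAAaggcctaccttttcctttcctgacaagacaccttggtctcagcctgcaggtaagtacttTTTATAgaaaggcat
Reg3a: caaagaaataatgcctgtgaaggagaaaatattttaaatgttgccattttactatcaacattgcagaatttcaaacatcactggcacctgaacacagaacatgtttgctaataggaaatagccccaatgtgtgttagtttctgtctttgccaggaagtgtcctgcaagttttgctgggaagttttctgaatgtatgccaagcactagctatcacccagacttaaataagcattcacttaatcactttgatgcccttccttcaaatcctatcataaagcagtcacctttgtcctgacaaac

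In a global alignment the windows of Reg3b and Reg3g were identical in 68.6% of alignment columns. Reg3a reached 47.5% with Reg3b and 52.4% with Reg3g, and Reg1 46% to 49.7% with the 3 Reg3 genes. The window of Mptx1, a gene on chromosome 1, reached 44.2% to 48.3% with the same lectin genes. Apart from Reg3g with Reg3b and with Reg3a, the values were thus near those of a gene outside the cluster. TATAAA lay 29 bases before the start in Reg3b, 27 in Reg3g and 30 in Reg1, and Reg3a had no match to any of the 5 motifs. The TTCNNNGAA letters were found in Reg3b, 129 bases before the start, and the STAT6-type form in Reg1, 244 bases before it. TGATAA was found in Reg3b and Reg1. Mptx1, the other gene with a window in the table, held TATAAA on the minus strand, 198 and 82 bases before the start, and AGATAA. Of 32851 RefSeq windows of 300 bases, 8.3% held the STAT letters and 6.95% their STAT6-type form. The TATA box letters were in 13.6% of windows. Of the GATA motifs, the form that opens with A was in 11.2% and the form that opens with T in 9.05%. No matches overlapped, and a match describes letters only.

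Reg1 and Reg3a were high on the small intestinal array alone. Reg1 was at 1.54 on the LP-labelled array, 9.55 on small intestinal IEL, 1.504 on colon IEL and 2.63 on recolonized colon IEL. Its range of 8.04 over the 4 arrays was the fifth widest of the 22180 genes. Reg3a was at 2.05, 5.53, 2.44 and 1.74 in the same order. Off the small intestinal array, every value of Reg1 and Reg3a was in the low end of its array or no more than 0.25 above the median of all genes. Reg1 and Reg3a thus parted from Reg3b and Reg3g on the LP-labelled array, where the latter pair was high. Over all 4 arrays, however, Reg3a was about as near to Reg3b as to Reg1, with root mean square differences of 1.97 and 1.94.

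Retnlb and Mptx1 followed neither pair. The root mean square difference between them was 1.54, the smallest among the 6 genes after that of Reg3b and Reg3g. Retnlb was at 7.58 on the LP-labelled array, 2.001 on small intestinal IEL, 2.41 on colon IEL and 5.01 on recolonized colon IEL. Mptx1 was at 5.89, 1.41, 4.03 and 7.05 in the same order. Both were in the low end of the small intestinal array, where the 4 lectin genes had their highest level. They differed in where they peaked, Retnlb on the LP-labelled array and Mptx1 on the recolonized array.

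**Figure D1:**
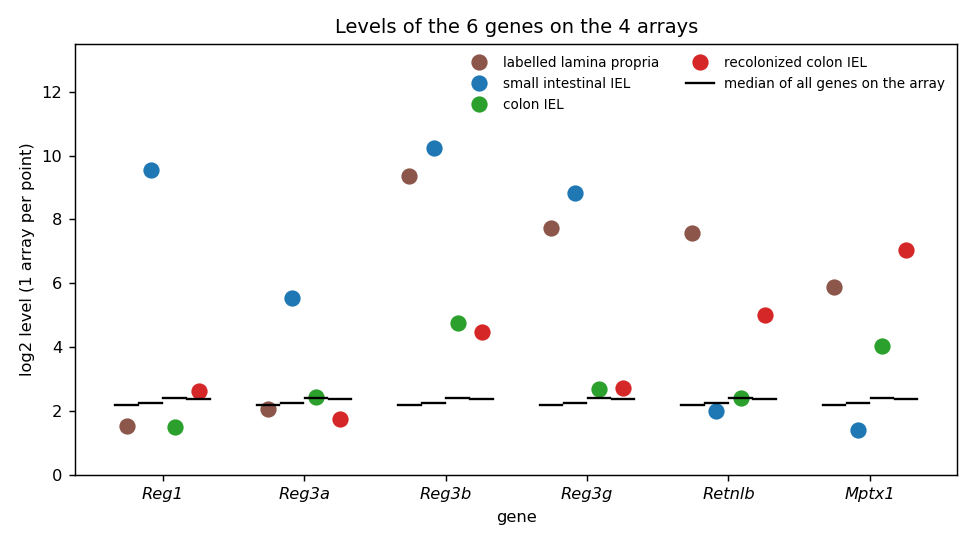
Log2 level of each of the 6 genes on the 4 arrays, 1 point per array, with short black lines at the median of all genes on that array. Reg1 and Reg3a stand clear of the line only on small intestinal IEL, Reg3b and Reg3g are highest there and on the LP-labelled array, and Mptx1 is highest on recolonized colon IEL, at 7.05.

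Recolonized colon IEL were set against colon IEL of unmanipulated mice to ask how antibiotics followed by the return of bacteria bear on colon IEL. Mptx1 and Retnlb were higher on the recolonized array, by 3.01 (8.08-fold) and 2.60 on the log2 scale, whereas the bactericidal lectins Reg3b and Reg3g differed by -0.28 and 0.01. Retnlb was in the low end of the colon IEL array, so the size of its difference may be limited there. Reg1 was higher by 1.13, but at levels of 2.63 against 1.504, close to the low end of both arrays, and Reg3a differed by -0.70 between values of 1.74 and 2.44. A gene was counted as different at 2-fold or more, a log2 difference of 1, if its level on the brighter array was at or above that array's median. By this rule 3 of the 6 genes were higher and 0 lower, where 6.04% of the 12443 genes above this floor were higher and 3.06% lower. With the floor at the 75th percentile Reg1 was no longer counted and 2 genes were higher. Of all genes above the median floor, 9 had a larger positive difference than Mptx1.

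The spread within this comparison gives a scale for these values. The differences had an SD of 0.54 among 15 ribosomal protein genes, 0.53 among 10 reference genes and 0.73 for the gap between paired probe sets of 968 genes. The differences of Mptx1 and Retnlb were larger than 3 times each of these, that of Reg1 was not, and those of Reg3a, Reg3b and Reg3g were smaller than the SD between probe sets. With 1 array per group this spread does not include that between mice. The share of higher genes among all that were called was 66.3% as deposited, 48.8% with quantile normalization, 59.8% with centring and 46.6% with a lowess correction. Under these scalings Mptx1 ranged from 2.59 to 3.01 and Retnlb from 2.42 to 3.13.

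**Figure D2:**
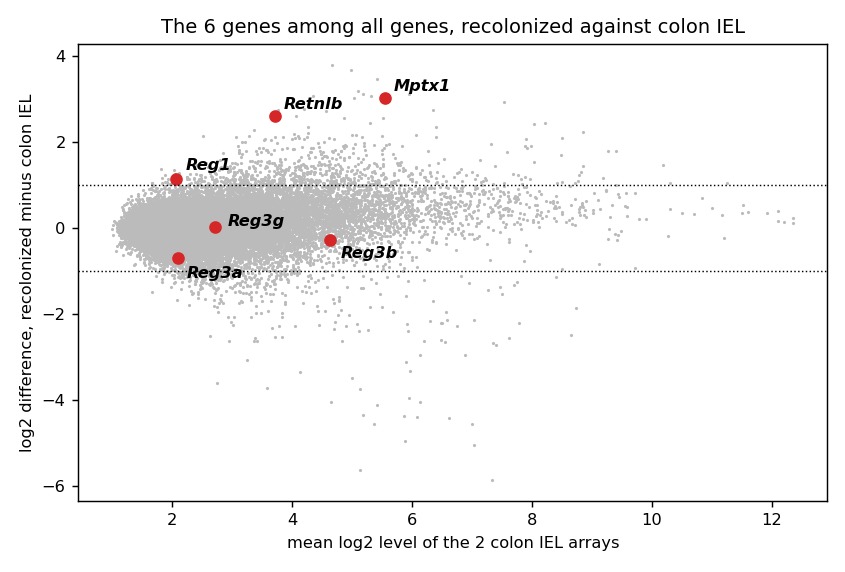
Log2 difference between recolonized and unmanipulated colon IEL against the mean log2 level of both arrays, for all 22180 genes (grey) and the 6 genes (red), with dotted lines at 2-fold. Mptx1 and Retnlb lie at the upper edge of the cloud at 3.01 and 2.60, while Reg3b and Reg3g lie near 0.

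Markers of epithelial cells were also higher on the recolonized array. As deposited the ribosomal protein and reference genes were shifted up too, with median differences of 0.33 and 0.39. These medians were -0.07 and 0.02 with quantile normalization, and -0.23 and -0.16 with the lowess fit. Of the 9 goblet cell markers, 5 were at least 2-fold higher and 0 lower, with a median of 1.15 and a range from -0.16 to 3.11. With quantile normalization 4 were higher and the median was 0.71, and with the lowess fit 4 and 0.63. Fcgbp, a mucus protein, was higher by 3.11, the goblet cell gene Spink4 by 2.57 and the gel-forming mucin Muc2 by 2.45. Retnlb, at 2.60, lay inside the range of the goblet cell list as deposited. It also did with centring, at 2.55 against a maximum of 3.06, and with the lowess fit, at 2.42 against 2.65. With quantile normalization it lay beyond the range, at 3.13 against 2.68 for Fcgbp. Of the 10 colonocyte markers 5 were higher and 0 lower, with a median of 1.41 and a range from -0.27 to 3.68. Car4, a membrane carbonic anhydrase, was higher by 3.68 and the guanylin gene Guca2a by 3.47. Mptx1 and Retnlb thus both lay inside the range of the colonocyte list. As deposited Mptx1, at 3.01, also lay inside the goblet cell range. With quantile normalization it was beyond that range, at 2.78 against 2.68. The 14 pan-epithelial markers had a median of 0.67, with 5 higher and 0 lower, and a median of 0.52 with quantile normalization and 0.38 with the lowess fit. The 9 T cell markers had a median of 0.55, with 1 higher and 0 lower. That median was 0.18 with quantile normalization and 0.17 with the lowess fit, and 0 were then higher. Of the 5 B cell markers 3 were lower and 0 higher, with a median of -1.43. Cd79a, a chain of the B cell receptor complex, was at 3.31 against 5.57. Of the 6 stromal markers 3 were higher and 3 lower. The part of these cell types in the differences of Retnlb and Mptx1 was not tested.

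Reg3b and Reg3g, at -0.28 and 0.01, were within 2-fold. As deposited both lay inside the range of the pan-epithelial markers, from -0.29 to 1.86, Reg3b only narrowly. With quantile normalization Reg3b lay beyond that range, at -0.67 against -0.66, and with the lowess fit it was at -0.59. Reg3g was only 0.29 and 0.33 above the median of all genes on colon and recolonized IEL, so the size of its difference may be limited. Set against the pan-epithelial median, Reg3b differed by -0.94 and Reg3g by -0.65, while Retnlb differed by 1.93 and Mptx1 by 2.35. The 12 enterocyte markers, 9 of them above the floor, had a median of 0.07, with 3 higher and 0 lower. Anpep, a brush border peptidase, was at 4.66 against 2.63 and Fabp2, the intestinal fatty acid binding protein, at 6.78 against 4.87. Of the 8 Paneth cell markers 2 were higher and 1 lower. Ang4, an antimicrobial ribonuclease of Paneth and goblet cells, was at 9.25 against 6.83 and the defensin gene Defa22 at 5.36 against 2.76. Lyz1, the lysozyme of Paneth cells, was at 2.51 against 4.83.

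**Figure D3:**
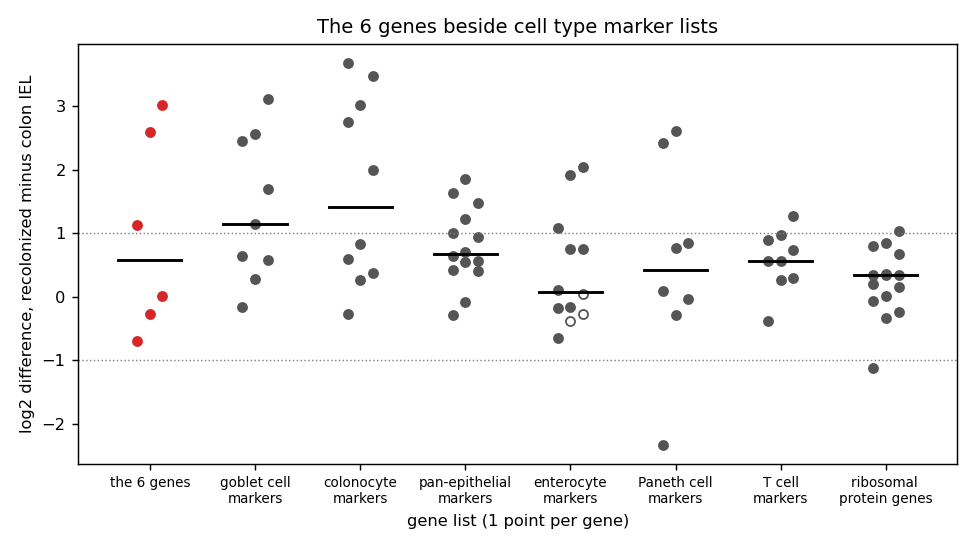
Log2 difference between recolonized and unmanipulated colon IEL for the 6 genes (red) and for the genes of 7 lists (grey), with black bars at list medians, open points below the level floor and dotted lines at 2-fold. The goblet cell and colonocyte lists reach 3.11 and 3.68 in the deposited values plotted here, beside 2.60 for Retnlb and 3.01 for Mptx1, and the other 4 of the 6 genes lie between -0.70 and 1.13.

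Colon IEL were set against small intestinal IEL to ask how IEL samples differ along the gut. The lectins were lower on the colon IEL array and Mptx1 was higher. Reg1 differed by -8.04, Reg3g by -6.13, Reg3b by -5.48 and Reg3a by -3.09, and Mptx1 by 2.62. Retnlb was in the low end of both arrays and was not counted. Hence 4 of the 6 genes were lower and 1 higher, where 24.4% of 12551 genes above the floor were lower and 5.98% higher. Of these, 1 gene had a more negative difference than Reg1, and 34 genes exceeded the positive difference of Mptx1. The SD of the differences was 0.50 over ribosomal protein genes and 1.08 between probe sets.

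The small intestinal array carried RNA of the epithelial cells that make these lectins. On colon IEL all 12 enterocyte markers were lower by 2-fold or more (median -6.78), as were 7 of 8 Paneth cell markers (median -5.74). The pan-epithelial markers had a median of -1.79, with 10 of 14 lower and 0 higher, but of -0.95 with quantile normalization and -0.99 with the lowess fit, where 7 were lower. Against the median as deposited Reg1 differed by -6.25, Reg3g by -4.34, Reg3b by -3.69 and Reg3a by -1.30. The part of the enterocyte and Paneth cell RNA in these differences was not tested. As Reg1, Reg3a and Reg3g were near the low end of the colon IEL array, the sizes of their differences may be limited there, as may that of Mptx1 by its low level on small intestinal IEL. With the recolonized array in place of colon IEL, the same 4 genes were lower, with differences from -6.92 to -3.78, Mptx1 was higher by 5.63 and Retnlb by 3.01, where 17.9% of genes above the floor were lower and 4.76% higher. The share of higher genes among all called was 19.7% as deposited, 49.6% with quantile normalization, 37.1% with centring and 39.7% with the lowess fit, and the 5 counted genes all kept their direction and stayed beyond 2-fold under these scalings.

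Colon IEL were also set against the LP-labelled array, whose content was largely epithelial. Retnlb differed by -5.17, Reg3g by -5.04, Reg3b by -4.59 and Mptx1 by -1.86. Reg3a differed by 0.39 and Reg1, in the low end of both arrays, was not counted. Thus 4 of the 6 genes were lower and 0 higher, where 34.7% of 12788 genes above the floor were lower and 10.5% higher. The 14 pan-epithelial markers were all lower by 2-fold or more (median -3.81), and so were the 10 colonocyte markers (median -5.76). The pan-epithelial median was -2.69 with quantile normalization and -2.39 with the lowess fit, with 13 of 14 lower in both. Against the median as deposited Retnlb differed by -1.36, Reg3g by -1.23 and Reg3b by -0.78, whereas Mptx1 differed by 1.95. The part of the epithelial RNA in these differences was not tested.

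The difference of Mptx1 in this comparison depended on the scaling and on the colon array. Quantile normalization gave -0.48 and the lowess correction -0.49, both within 2-fold, and 1.16 in the other direction with the recolonized array in place of colon IEL. With that array Retnlb differed by -2.57, Reg3b by -4.86, Reg3g by -5.03 and Reg1 by 1.09, so that 3 of the 6 genes were lower and 2 higher, where 30.3% of genes above the floor were lower and 9.41% higher. The share of higher genes among all called was 23.2% as deposited, 48.9% with quantile normalization, 44.8% with centring and 44.2% with the lowess fit. The differences had an SD of 0.46 among ribosomal protein genes, 1.03 among reference genes and 1.41 for paired probe sets.

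The 2 arrays with the most epithelial RNA, small intestinal IEL and the LP-labelled array, were compared with each other. Reg1 was higher on the small intestinal array by 8.01 and Reg3a by 3.48, whereas Retnlb differed by -5.58 and Mptx1 by -4.48. Reg3g differed by 1.08 and Reg3b by 0.89, close to the 2-fold line on either side. Thus 3 genes were higher and 2 lower, where 8.76% of 12164 genes above the floor were higher and 15.7% lower. With quantile normalization, centring and the lowess fit Reg3b differed by 1.22, 1.04 and 1.14, which made 4 genes higher. The share of higher genes among all called was 35.8% as deposited and 49.5%, 44.5% and 47.5% under those scalings.

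Regional markers differed in the same comparison. All 12 enterocyte markers were at least 2-fold higher on the small intestinal array, with a median of 3.39, and 7 of 8 Paneth cell markers, with a median of 6.39. All 10 colonocyte markers were lower, with a median of -5.53, as were 7 of 9 goblet cell markers, with a median of -1.73. The part of these regional markers in the differences of the 6 genes was not tested. Reg1 at 8.01 lay beyond the highest of the Paneth cell and enterocyte markers, at 6.89 and 7.46. Retnlb at -5.58 and Mptx1 at -4.48 both lay beyond the lowest goblet cell marker, at -3.19. Both lay inside the colonocyte range, from -10.04 to -1.16. All 3 had a value in the low end of 1 of the arrays, which may limit these sizes. The comparisons share arrays, so that the lower colon IEL values of Reg3b and Reg3g enter more than 1 of them.

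**Figure D4:**
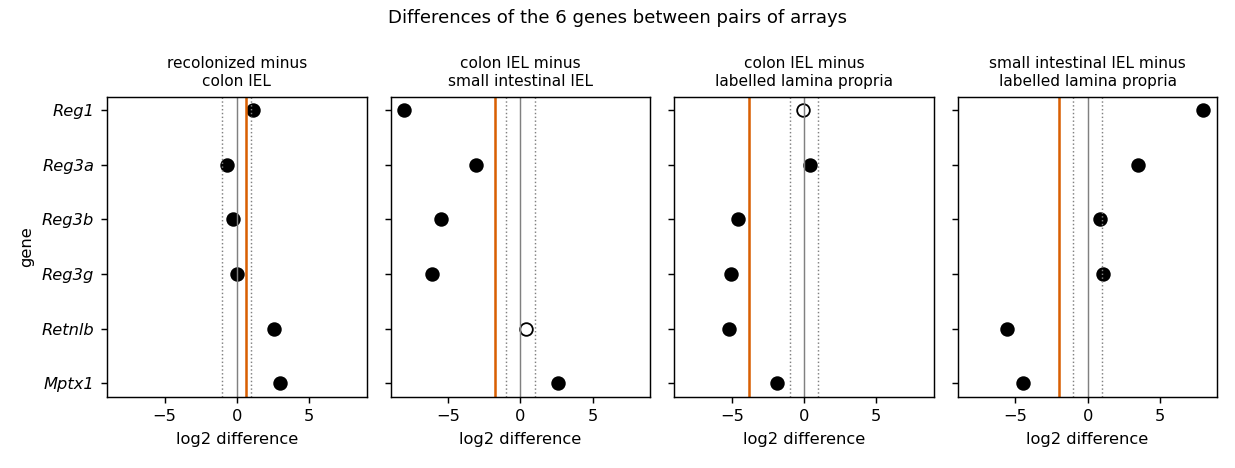
Log2 difference of each of the 6 genes in the 4 comparisons (points; open where the gene was below the level floor), with the median of the pan-epithelial markers (orange line), 0 (grey line) and 2-fold (dotted lines). Reg1 lies at -8.04 and 8.01 in the comparisons with small intestinal IEL, and Mptx1 and Retnlb lie right of the orange line for recolonized against colon IEL.

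Relatives of the 6 genes were also unevenly spread over the arrays. Mptx2, the other mucosal pentraxin, was at 8.44 on small intestinal IEL and at 1.604, 2.01 and 1.73 on the LP-labelled array, colon IEL and recolonized IEL, so it was high only where Mptx1 was in the low end. Reg4, a lectin of secretory cells of the colon, was at 10.65 on the LP-labelled array, 6.90 on small intestinal IEL, 3.21 on colon IEL and 5.92 on recolonized IEL, a difference of 2.71 between the colon IEL arrays. Reg2 and Reg3d, which lie inside the Reg cluster, were in the low end of all 4 arrays, between 1.24 and 1.84. Retnla and Retnlg, the neighbours of Retnlb on chromosome 16 and products of myeloid cells, ran against it. Retnla was at 5.43 on colon IEL and from 1.38 to 1.72 on the other arrays, and Retnlg was at 4.15 against 1.18 to 1.90. Of the 8 myeloid and granulocyte markers, 5 were above the floor and 0 beyond 2-fold between the colon IEL arrays, with a median difference of -0.33. With the lowess fit 1 of them, Lyz2, was lower, at -1.13. Among the 10 relatives, 4 were above the floor in the comparison of the colon IEL arrays. Of these, 1 was higher and 2 were lower on the recolonized than on the unmanipulated array.

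Other antimicrobial and barrier genes of the epithelium gave a mixed picture on the recolonized array. Of 21 measured, 13 were above the floor, 4 were higher than on colon IEL, namely Muc2, Ang4, Lypd8 and Tff3, and 1, Lyz1, was lower. All but Lypd8 of these are also in the goblet or Paneth cell list. Lypd8, a colonic protein that holds flagellated bacteria off the epithelium, was at 10.30 against 8.52, and Tff3, the goblet cell trefoil factor, at 7.63 against 6.48. The difference of Tff3, 1.15 as deposited, was 0.71 with quantile normalization and 0.63 with the lowess fit, both within 2-fold. The list median was 0.13, against 0.03 for all genes. Among 7 microbe-response genes, which encode enzymes, a transporter and chemokines, 4 were above the floor. Of these 1 was higher, the immunoglobulin transporter Pigr, at 7.15 against 4.99.

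Cytokines listed as possible inducers of epithelial genes, not all of them known to act on the 6 genes, were mostly in the low end of the arrays. Il22 was at 1.00, 1.23, 1.05 and 1.41 on the LP-labelled array, small intestinal, colon and recolonized IEL. Il13, a type 2 cytokine, was at 1.70, 1.80, 1.88 and 2.47, so only the recolonized value exceeded the median of all genes, by less than 2-fold over colon IEL. Il18, an interleukin that epithelial cells also make, was an exception, at 7.32, 6.61, 2.88 and 2.99. Of the 15 cytokines listed, 6 were above the floor and 0 were at least 2-fold different between the colon IEL arrays. Of 17 receptors and signalling genes, the recolonized array had 3 higher and 0 lower. Extl3, a glycosyltransferase that serves as a receptor of Reg proteins, was at 4.73 against 2.76, and the interleukin-17 receptor chains Il17rc and Il17ra were at 4.199 against 2.74 and 6.02 against 4.71. Il22ra1, the epithelial chain of the interleukin-22 receptor, was at 3.46 against 2.49, and at 5.90 and 5.77 on the LP-labelled array and small intestinal IEL, where Reg3b and Reg3g were high. Other receptor genes, among them Il17rc and Il13ra1, were likewise higher there than on both colon IEL arrays. With quantile normalization Il17ra differed by 0.96 and with the lowess fit by 0.91, both within 2-fold.

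For each of the 6 genes, the 3 genes with the most similar centred levels over the 4 arrays were listed, leaving out the 6 genes themselves, unnamed genes, receptor segments, small RNAs and chemoreceptors. The measure is the root mean square difference in log2 level, over 4 arrays only. Reg1 was nearest to the Paneth cell defensin Defa24 (0.54), the fatty acid binding protein gene Fabp1 (0.57) and Defa39 (0.60). Reg3a was nearest to Sec14l2 (0.10), the fructose transporter gene Slc2a5 (0.17) and Slc7a15 (0.18). Reg3b and Reg3g had the same 3 nearest genes, Mep1b, which encodes a brush border protease subunit, Glod5 and Gstm3, at 0.14 to 0.37 for Reg3b and 0.16 to 0.28 for Reg3g. Reg3b and Reg3g, 0.24 apart, were nearer to each other than Gstm3 to Reg3b or Mep1b to Reg3g. However, Mep1b (0.14) and Glod5 (0.21) were nearer to Reg3b than Reg3g was. Likewise Glod5 (0.16) and Gstm3 (0.21) were nearer to Reg3g than Reg3b was. The like pattern was thus not particular to the pair. Retnlb was nearest to the transglutaminase gene Tgm3 (0.32), Tspan1 (0.56) and the kallikrein gene Klk1 (0.58). Mptx1 had no close match, since Mlph, Anxa3 and Actn1 were nearest at 1.05, 1.19 and 1.26.

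**Figure D5:**
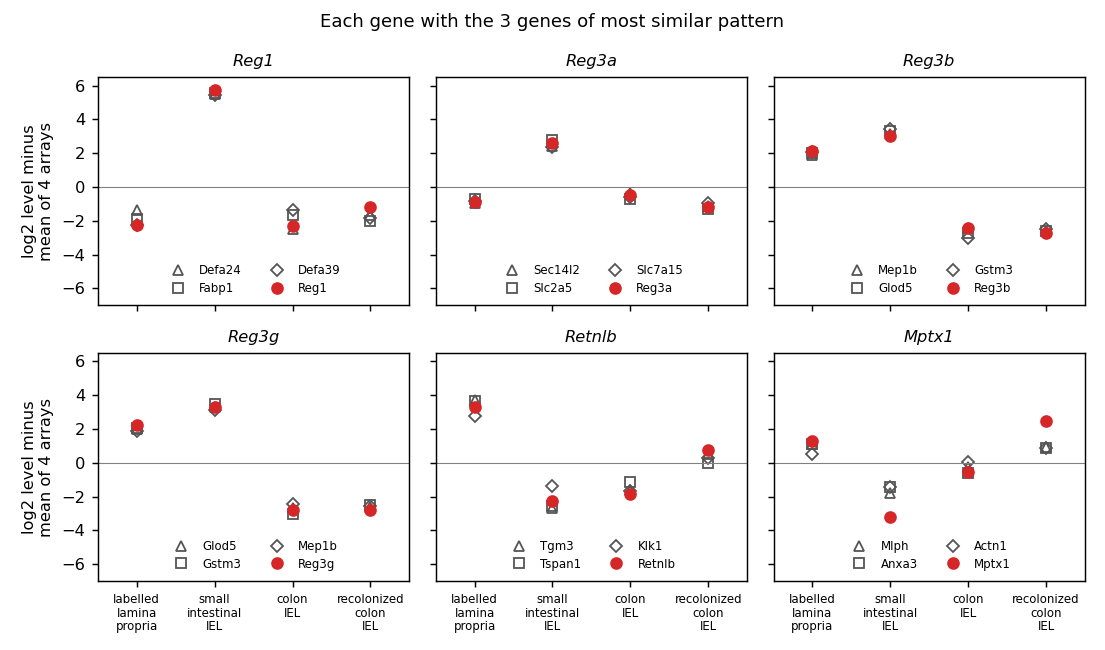
Log2 level minus the mean over the 4 arrays for each of the 6 genes (red) and its 3 nearest genes outside the 6 (open symbols). The symbols coincide closely for Reg3a, Reg3b and Reg3g, whereas Mptx1 lies above its nearest genes on recolonized colon IEL and below them on small intestinal IEL, at root mean square differences of 1.05 to 1.26.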

How the data were processed

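The deposited values are log2 levels per probe set, made by the authors in Affymetrix Expression Console (submitters' processing notes). How it summarized and normalized, and its version, is not given in the sources used here. Of 41345 probe sets, 23521 listed 1 gene symbol, 1814 several and 16010 none in the gene table used; gene IDs of 23328 matched RefSeq (GRCm38.p6), and 0 symbols were updated. Each of 22180 genes took the brightest, by mean level, of its probe sets with 1 symbol. Differences of log2 levels were counted at 2-fold or more above the 50th percentile of genes on the brighter array. With 1 array per group there is no test, and the number of arrays limits precision. Promoter windows were aligned with Biopython 1.88. Named genes are the 6 genes, at most 6 members per list by largest difference, fixed markers, and the 3 nearest genes by pattern. The genes and lists were chosen with earlier results of these data known. Alternatives were 3 scalings (lowess span 0.3), mean probe sets, other floors and folds, and the recolonized array in place of colon IEL. The counting steps were tested on simulated data. Proteins were not used here.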

Additional observations from a re-analysis of the deposited data

How the results depend on the processing

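With 1 array per group no array could be left out. No paired analysis was possible because each group has 1 array. Of the differences of the 6 genes, all 24 moved by less than the SD over ribosomal protein genes under centring and under the mean of probe sets (each of the 6 has 1 probe set), 14 did so with quantile normalization and 16 with the lowess fit. Centring shifted the median difference of all genes by 0.24 for colon against small intestinal IEL, 0.39 for colon IEL against the LP-labelled array and 0.15 for small intestinal IEL against that array. Probe sets near the low end of an array limit the sizes of differences.

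The median of the 6 genes for colon against small intestinal IEL was -4.28 as reported, -3.71 with quantile normalization and -3.49 with the lowess fit. For colon IEL against the LP-labelled array it was -3.22 as reported, -1.95 with quantile normalization, -1.84 with the lowess fit and -1.44 when the recolonized array stood in. With the recolonized array 2 of the 6 genes were higher in each of these comparisons, and Mptx1 reversed to 1.16 against the LP-labelled array. At 1.5-fold 1 of the 6 genes, Reg3a, was lower on recolonized than on unmanipulated colon IEL, where 1298 of 12443 genes above the floor were lower. Its levels were 1.74 against 2.44, beside array medians of 2.39 and 2.41.

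Counts over all genes moved more. For recolonized against colon IEL there were 874 lower genes under quantile normalization and 437 higher after the lowess correction, 2402 higher and 1298 lower at 1.5-fold, and 146 and 109 at 3-fold. For colon against small intestinal IEL there were 1650 higher and 1674 lower under quantile normalization, 1387 higher after centring, 1653 lower after the lowess correction and 486 higher with the floor at the 75th percentile. At 1.5-fold they were 2024 and 4785, and at 3-fold 163 and 1569. For colon IEL against the LP-labelled array there were 2287 higher and 2387 lower under quantile normalization, 2648 higher after centring and 2356 lower after the lowess correction. There were 2750 higher at 1.5-fold, and 493 higher and 2789 lower at 3-fold. For small intestinal IEL against that array there were 1112 lower under quantile normalization, 1792 higher and 3468 lower at 1.5-fold, and 656 and 895 at 3-fold. Beyond the choice of threshold and floor, the cause was not tested.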
